A study of Mus musculus with 6 samples.

Results

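The baseline of wild-type macrophage cultures grown from mouse bone marrow in granulocyte-macrophage colony-stimulating factor (GM-CSF) was described across genes. It rests on the 3 arrays of 6 in the series whose sample titles name wild-type marrow macrophages; the other 3 arrays came from Bach1 knockout mice and were not used here. Each array held the RNA of 1 independent C57BL/6 mouse of 11 weeks, and the cultures are called WT 1, WT 2 and WT 3 after their labels. The labels call WT 1 and WT 2 male and WT 3 female. Marrow cells had been kept for 5 days at 37 °C and 5% CO2 in RPMI 1640 with 10% heat-inactivated fetal bovine serum, penicillin, streptomycin and 10 ng/mL GM-CSF, and all 3 arrays lay on 1 slide. No sorting or purification step is named in the labels, and the protocol gives no further stimulus. With 1 group and no comparison group no statistical test was made, and every statement is a description of these 3 cultures, whose number limits the precision.

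GM-CSF is a growth factor that binds a receptor made of an alpha chain (Csf2ra) and a beta chain (Csf2rb), and signals mainly through the kinase JAK2 and the transcription factor STAT5. Marrow cultured in GM-CSF is known to give a mixture of macrophages and cells with features of dendritic cells, both of which take up particles and present peptides on major histocompatibility complex (MHC) class II molecules. Such cultures can also hold granulocytes, their precursors and adherent stromal cells. In bulk RNA such as this, fewer cells of a type and less RNA per cell cannot be told apart.

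Each level is the log2 of a spot's processed signal minus the log2 of the 75th percentile of all non-control spots on its array. A level of 0 therefore equals that percentile, and a difference of 1 between cultures is 2-fold. The 75th percentile signal was 1778, 2207 and 2523 intensity units on WT 1, WT 2 and WT 3. A probe counted as detected where the scanner software marked it well above background on all 3 arrays, which held for 36103 of 55681 probes (64.8%). Of the probes, 26413 could be named and stood for 20018 genes, and 15311 of these genes (76.5%) had a detected probe. A level above the 75th percentile on all 3 arrays was seen for 7867 genes (39.3%). These percentages are the background against which the counts of detected genes in each list are read. At the edge of detection, the complement gene C8a was detected with a mean level of -5.24 ± 0.21 (mean ± SD, n = 3, as in all values of this form), whereas Rfx5, a regulator of MHC class II genes, was bright enough on 2 arrays only and was left out although its mean was -4.14. The probe of a gene with the highest mean level stood for the gene, so levels compare cultures for 1 probe and do not rank the abundance of different transcripts.

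The sex labels were checked first, since sex is the one characteristic in the labels that differs between the cultures. Eif2s3y, a translation factor gene on the Y chromosome, had levels of 3.81, 4.09 and 3.56 in WT 1, WT 2 and WT 3. Ddx3y, a Y-linked RNA helicase gene, had levels of 0.54, 0.68 and 0.93, and Kdm5d, a Y-linked histone demethylase gene, -4.54, -4.09 and -5.14. All 3 Y-linked genes were thus detected on the array labelled female as on the arrays labelled male, and for Ddx3y that array was the highest. Uty, also Y-linked, was not well above background on any array. Xist, the non-coding RNA that silences an X chromosome in female cells, was not well above background on the array labelled female and was marked above it on WT 1 alone, at a level of -3.88. The array labelled WT 3 female therefore went against its sex label, and no value below is read as a difference between sexes. Which mouse that array came from is uncertain, and every difference of WT 3 from the other cultures given below rests on it. Leaving WT 3 out gave 15625 detected genes in place of 15311.

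**Figure D1:**
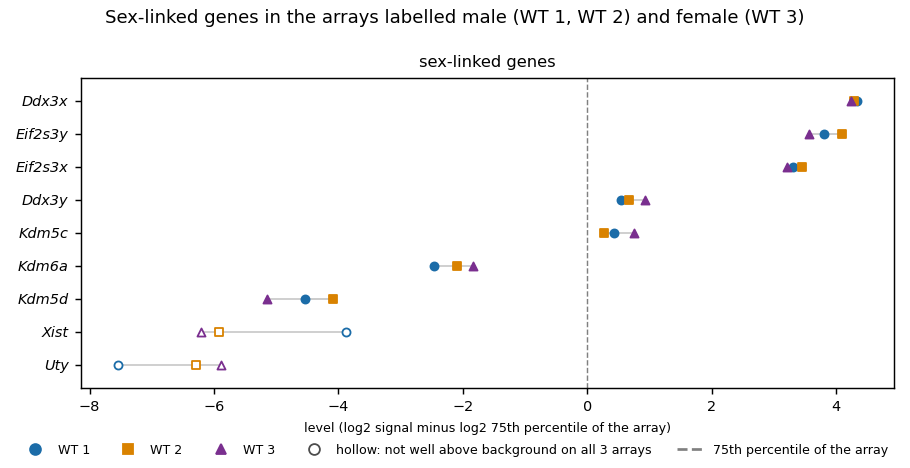
Levels of 9 sex-linked genes on the arrays labelled male (WT 1, WT 2) and female (WT 3), on the log2 scale where 0 is the array's 75th percentile. Each symbol is 1 culture, and hollow symbols mark genes not well above background on all 3 arrays; the Y-linked genes Eif2s3y, Ddx3y and Kdm5d were detected in WT 3, and Xist was not.

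Of the 6 genes chosen to check the labelled cell type, 5 were named on the array, and all 5 were detected and lay above the 75th percentile in each culture. Csf1r, the receptor for macrophage colony-stimulating factor, had levels of 7.01, 6.76 and 6.78 in WT 1, WT 2 and WT 3 (6.85 ± 0.14). Itgam, the CD11b integrin chain of myeloid cells, had levels of 5.90, 5.83 and 5.71 (5.81 ± 0.09). Itgax, the CD11c chain carried by dendritic cells and some macrophages, had levels of 6.15, 6.06 and 6.12 (6.11 ± 0.04). For each of these genes the cultures nearly coincided, by far less than 2-fold. H2-Aa, the alpha chain of the MHC class II molecule I-A, had levels of 6.53, 6.45 and 6.40 (6.46 ± 0.07). Spi1, which encodes the myeloid transcription factor PU.1, had levels of 0.72, 0.61 and 0.70 (0.67 ± 0.06), and its single probe was nearer the 75th percentile than the others. Cd68 was not matched to a named probe and was not analysed here. The choice of probe bears on such levels: Csf1r had 3 detected probes, with means of 6.85, 3.49 and -0.01, and Itgam had 3, with means of 5.81, 1.19 and -0.83.

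Further macrophage and monocyte genes were detected in 17 of 18 cases, 16 of them above the 75th percentile in each culture. Lgals3 (galectin-3) had a mean level of 7.59 ± 0.27, Tyrobp (the signalling adaptor DAP12) of 7.40 ± 0.34 and Lyz1 (a lysozyme) of 7.16 ± 0.30. Adgre1, which encodes the macrophage antigen F4/80, had levels of 5.79, 5.88 and 5.77. Mertk, a receptor for apoptotic cells, had levels of 2.27, 2.30 and 2.18, and Fcgr1, the high-affinity IgG receptor, 1.37, 1.29 and 1.67. The exception among detected members was Cx3cr1, the fractalkine receptor, which had levels of 0.12, -1.56 and 1.61 and differed between each pair of cultures by more than 2-fold. A second Cx3cr1 probe gave the same order, at -2.30, -3.56 and -1.14. Cd163, the receptor for haptoglobin-bound hemoglobin, was marked above background on 1 array, WT 3.

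**Figure D2:**
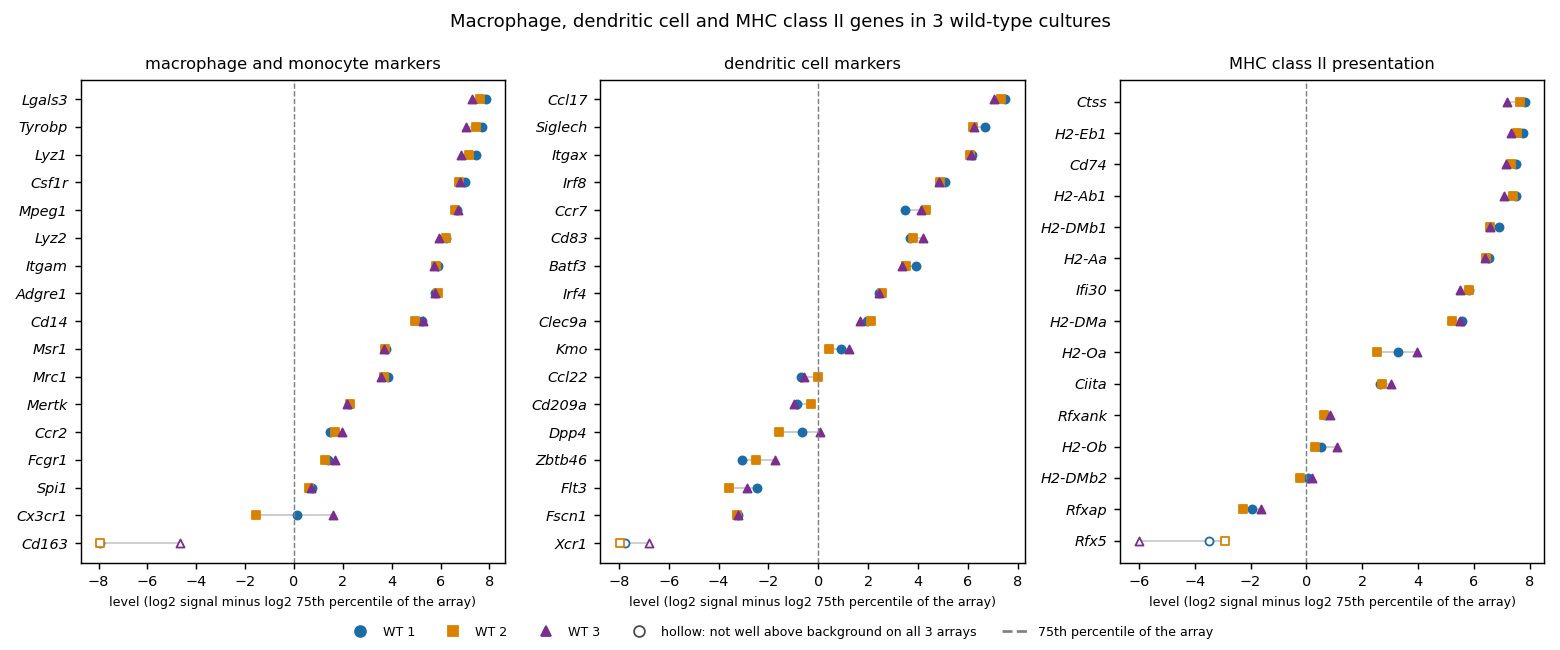
Levels of macrophage and monocyte, dendritic cell and MHC class II genes in WT 1, WT 2 and WT 3, on the log2 scale where 0 is the array's 75th percentile, 1 row per gene and 1 symbol per culture. Symbols overlap for most rows; Cx3cr1, with levels from -1.56 to 1.61, is the widest among the detected members drawn, and hollow symbols mark Cd163, Xcr1 and Rfx5, which were not detected on all 3 arrays.

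Dendritic cell genes were detected in 16 of 17 cases and 10 lay above the 75th percentile in each culture. Ccl17, a chemokine made by dendritic cells and alternatively activated macrophages, had levels of 7.50, 7.31 and 7.05, and Irf8, a transcription factor of monocytes and dendritic cells, 5.08, 4.86 and 4.84. Batf3, which drives cross-presenting dendritic cells, had levels of 3.90, 3.53 and 3.35, and Irf4, which acts in other conventional dendritic cells, 2.44, 2.55 and 2.42. Ccr7, the receptor that guides migrating dendritic cells, had levels of 3.49, 4.30 and 4.12, with WT 1 the lowest. By contrast, Zbtb46 and Flt3, the transcription factor and growth factor receptor that define the conventional dendritic cell lineage, lay far below the 75th percentile. Zbtb46 had levels of -3.06, -2.49 and -1.75 and Flt3 of -2.44, -3.57 and -2.86. Xcr1, the chemokine receptor of cross-presenting dendritic cells, was not well above background on any array. Clec9a, of the same list, lay above the 75th percentile in each culture, at 1.96, 2.09 and 1.67. For Siglech, a receptor of plasmacytoid dendritic cells and microglia, the 2 probes disagreed by far more than the cultures did, with means of 6.37 and -4.44, so its level is uncertain.

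MHC class II presentation genes were detected in 14 of 15 cases, and 12 lay above the 75th percentile in each culture. The chains of the I-A and I-E molecules were among them: H2-Ab1 had levels of 7.53, 7.40 and 7.07 and H2-Eb1 7.77, 7.53 and 7.34. Cd74, the invariant chain that holds the groove until peptides are loaded, had levels of 7.50, 7.33 and 7.16, and Ctss, the protease that trims it in antigen-presenting cells, 7.84, 7.67 and 7.20. For each of these WT 1 was the highest and WT 3 the lowest. That order was shared by 29 of the 30 brightest genes and was not particular to class II. Before scaling, the log2 signals of H2-Eb1 were 18.56, 18.64 and 18.64 and those of Ctss 18.63, 18.78 and 18.50. Over the 14 detected genes of the list WT 3 was the highest in 6 and the lowest in 6. H2-DMa and H2-DMb1, which load peptides, had means of 5.43 ± 0.18 and 6.68 ± 0.18. Ciita, the transactivator of the class II genes, had levels of 2.65, 2.70 and 3.04. H2-Oa, a chain of the molecule that restrains peptide loading, had levels of 3.29, 2.52 and 3.96 and was the member with the widest gap between cultures.

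Class II genes are known to carry a Y box in a conserved upstream block, and 2 of the promoters are shown to place that element beside the levels of H2-Aa and H2-Eb1. The sequences are the 250 bases before the RefSeq start of each gene in GRCm38.p6, 5′ to 3′ on the gene's strand, with matches to CTGATTGG in capitals.
H2-Aa (chr17:34287824-34288073, minus strand): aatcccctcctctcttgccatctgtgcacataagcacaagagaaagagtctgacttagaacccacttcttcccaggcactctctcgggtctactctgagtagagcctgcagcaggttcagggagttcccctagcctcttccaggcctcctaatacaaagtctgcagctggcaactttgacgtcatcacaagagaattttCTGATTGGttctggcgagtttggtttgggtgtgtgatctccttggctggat
H2-Eb1 (chr17:34305617-34305866, plus strand): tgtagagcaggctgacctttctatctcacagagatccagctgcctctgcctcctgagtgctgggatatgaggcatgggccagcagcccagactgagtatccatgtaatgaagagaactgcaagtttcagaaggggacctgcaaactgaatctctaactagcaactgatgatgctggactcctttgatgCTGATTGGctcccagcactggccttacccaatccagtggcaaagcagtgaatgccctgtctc
The match in H2-Aa ended 43 bases before the start, and the match in H2-Eb1 54 bases before it. CTGATTGG was sought on both strands over 300 bases, 250 before and 50 after the start. It was present in 3 of the 11 class II genes with a RefSeq promoter entry (27.3%), namely H2-Aa, H2-Eb1 and H2-Oa. The share was 1271 of all 27025 genes (4.70%) and 737 of 12207 detected genes with an entry (6.04%). Ctss and H2-DMb1, which were also bright, had no match. The list was chosen with earlier results of these data known. A match describes the letters in this window and does not show a bound site.

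The highest-ranked probe signals came from general and myeloid transcripts alike. Of the 30 genes with the highest mean levels, between 7.55 and 8.02, 10 encoded ribosomal proteins or their fusions. Rps9, a protein of the small ribosomal subunit, ranked first at 8.02 ± 0.24, and Fth1, the heavy chain of the iron store ferritin, ranked next at 7.90 ± 0.33. Cytoskeletal and housekeeping genes followed, among them Myl6 (a myosin light chain, 7.79 ± 0.21), Tuba1b (an alpha tubulin, 7.66 ± 0.18), Actb (7.56 ± 0.22), Ppia (cyclophilin A, 7.57 ± 0.27) and Ubb (a ubiquitin precursor, 7.55 ± 0.19). Myeloid genes stood in the same group. Cyba, the p22 subunit of the phagocyte oxidase, had levels of 7.94, 7.67 and 7.43, and Clec4n, the fungal sugar receptor dectin-2, 7.86, 7.56 and 7.39. The chemokine gene Ccl6 had levels of 7.85, 7.61 and 7.32, and Fcer1g, the signalling chain shared by several Fc receptors, 7.69, 7.52 and 7.47. Lgals3, Ctss and H2-Eb1 also belonged to the 30, as did Cd52, a small surface glycoprotein of leukocytes (7.58 ± 0.25), Gpx1, a glutathione peroxidase (7.57 ± 0.26), and F10, coagulation factor X (7.59 ± 0.12). The exosome subunit gene Exosc2 had a mean of 7.62 ± 0.31, and Milr1, an inhibitory immunoglobulin-like receptor first described on mast cells, 7.56 ± 0.27. Among the ribosomal members were Rps9, Rps10, Rps16, Rps27a, Rpl10, Rpl41, Rplp1, Rplp2 and Fau.

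Brightness at this end of the scale needs 2 further measurements. In 29 of the 30 genes the order was WT 1, then WT 2, then WT 3, with F10 the exception. Among the brightest 5% of detected genes the median of WT 1 minus WT 3 was 0.23, whereas the median over each of the other bins of level ran from -0.08 to 0.15; the unscaled log2 signals in that brightest bin had medians of 17.35, 17.58 and 17.68. Of the 30 genes, 12 had several probes, and in 3 of these the brightest and dimmest differed more than 16-fold. Slc10a1, a liver bile acid transporter, ranked 4 through a probe at 8.01, 7.61 and 7.52 while its other probe was not well above background on any array, and Kctd14 had probes with means of 7.56, 0.06 and -2.55. The place of Slc10a1 and Kctd14 among the brightest rests on 1 probe each.

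Transcripts of granulocytes were present in each culture. All 15 neutrophil genes were detected, and 8 lay above the 75th percentile in each culture. Csf3r, the receptor for granulocyte colony-stimulating factor, had levels of 7.20, 6.73 and 6.65, and the calcium-binding alarmins S100a8 and S100a9 had means of 5.50 ± 0.29 and 6.21 ± 0.11. Among granule proteins, Camp (cathelicidin) had levels of 5.84, 5.11 and 4.31, Mmp8 (neutrophil collagenase) 4.91, 5.65 and 5.59 and Ltf (lactoferrin) 3.82, 3.30 and 3.40. Mpo, the myeloperoxidase of immature granulocytes, had levels of -2.22, -3.21 and -3.20, whereas Elane (neutrophil elastase) had 3.96, 4.02 and 3.54. Prg2, the major basic protein of eosinophils, had levels of 4.22, 5.60 and 5.25, and Siglecf, a lectin of eosinophils and alveolar macrophages, 1.89, 1.76 and 1.55. The remaining detected eosinophil, mast cell and basophil genes, of 12 detected among 15, did not lie above the 75th percentile in each culture. Fcer1a, the IgE-binding chain of mast cells and basophils, and Gata1 were marked above background on 2 arrays, and Ms4a2, the beta chain of the same receptor, on none.

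Few genes of other lineages lay above the 75th percentile in each culture, 1 of 15 lymphoid, 3 of 11 erythroid and platelet and 3 of 10 stem and progenitor genes. Lymphoid genes were detected in 11 of 15 cases (73.3%, against 76.5% of all named genes), with a median level of -3.10 among those detected. Cd4, which some myeloid cells also carry, was the only one above the 75th percentile in each culture, at 0.65, 0.47 and 0.45. Cd3e, a T cell receptor chain, had levels of 0.64, 0.33 and -0.05, Cd79b, a B cell receptor chain, -1.38, -1.07 and -1.79, and the T cell kinase gene Lck -2.12, -1.85 and -1.74. Rag1 and Ms4a1 (CD20) were not above background on any array, Ncr1 of natural killer cells was above it on 1 and Cd8a on 2. Erythroid and platelet genes were detected in 7 of 11 cases. Pf4 and Ppbp, chemokines of platelets that are also made by some myeloid cells, had means of 7.18 ± 0.29 and 5.20 ± 0.63, and Tfrc, the transferrin receptor, had levels of 2.05, 2.90 and 3.34. Hba-a1, an alpha globin gene, had levels of -2.67, -1.98 and -2.69 and Slc4a1, the red cell anion exchanger, -1.97, -2.48 and -2.24. Gp9, which defines platelets, was not above background on any array, and Alas2 and Itga2b were above it on 1. Stem and progenitor genes were detected in 8 of 10 cases, led by Procr (4.46, 5.77 and 5.39) and Ly6a (2.64, 2.58 and 3.86), which other cells carry too. The third, Hoxa9, had levels of 1.60, 2.21 and 0.94 and Cd34 -0.28, -0.41 and -0.51. Slamf1 was marked above background on 2 arrays and Mecom on 1 with its brightest probe.

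Gene sets of macrophages from different tissues were compared with the cultures, as lists of known markers. The list of lung alveolar macrophage genes, cells that depend on GM-CSF in the animal, was detected in full (12 of 12), and 9 members lay above the 75th percentile in each culture. Fabp5, a fatty acid carrier, had levels of 7.64, 7.47 and 7.14, Chil3, a chitinase-like secreted protein, 7.05, 7.09 and 6.91, and Ear2, an eosinophil-associated ribonuclease, 6.64, 6.50 and 6.03. Fabp4, a second fatty acid carrier, had levels of 6.20, 5.80 and 5.30, so the cultures ran in the order WT 1, WT 2, WT 3. Pparg, the nuclear receptor that GM-CSF induces in alveolar macrophages, had levels of 2.72, 2.85 and 2.31. Across the 12 genes WT 3 was the lowest of the cultures in 9, with a median difference of -0.43 from the mean of the others. Over all detected genes it was the lowest in 5423 of 15311, but in 8 of 12 reference genes and 12 of 18 respiratory chain genes. Such a count was thus not seen in the alveolar list alone. Those lists were brighter, however, with median levels of 6.67 and 5.98 against 4.11, and the cause of the lean was not tested.

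Spleen and liver macrophage genes were detected in 10 of 12 cases. Marco, a scavenger receptor shared with the alveolar list, had levels of 6.09, 6.04 and 5.03, Hmox1, heme oxygenase 1, 4.99, 5.83 and 5.08, and Slc40a1, the iron exporter ferroportin, 4.38, 5.28 and 4.38. Nr1h3, the oxysterol receptor LXR alpha, had levels of 2.42, 1.75 and 2.49. Clec4f and Timd4, which mark resident Kupffer cells, were above background on 2 arrays each. Microglia and peritoneal macrophage genes were detected in 11 of 12, among them Siglech, Fcrls (3.04 ± 0.30) and Sparc (2.96 ± 1.43). Sall1, the factor that defines microglia, was not above background on any array, and Gata6, that of peritoneal macrophages, was dim at -4.55, -4.61 and -5.19. Osteoclast genes were detected in 9 of 10: Atp6v0d2, a proton pump subunit, had a mean of 6.68 ± 0.10, Acp5, the tartrate-resistant phosphatase, 6.26 ± 0.36, Dcstamp, which acts in cell fusion, 6.02 ± 0.11, and Ctsk, the bone-degrading protease, 3.69 ± 0.17. Calcr, the calcitonin receptor of mature osteoclasts, was not above background on any array.

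The receptors for the growth factor in the medium were bright in each culture. Csf2ra had levels of 5.94, 6.12 and 6.01, Csf2rb 6.54, 6.53 and 6.60, and Csf2rb2, the mouse beta chain that serves the interleukin 3 receptor, 6.74, 6.64 and 6.53. The cultures differed by far less than 2-fold for all 3 chains. Jak2 had levels of 4.60, 4.59 and 4.47, Stat5a 3.32, 3.54 and 2.88 and Stat5b 4.94, 4.96 and 4.55. Cish and Socs2, inhibitors that STAT5 is known to induce, had levels of 4.16, 4.63 and 3.75 and 3.36, 3.84 and 3.03, highest in WT 2 and lowest in WT 3. The genes for GM-CSF itself (Csf2) and for granulocyte colony-stimulating factor (Csf3) were not well above background on any array, whereas Csf1, encoding macrophage colony-stimulating factor, had levels of 2.42, 2.70 and 2.94. Of 15 genes on the list, 13 were detected and 12 lay above the 75th percentile in each culture.

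All 26 myeloid transcription factor genes were detected, 21 of them above the 75th percentile in each culture. Cebpb, a factor of granulocytes and inflammatory macrophages, had levels of 6.39, 6.82 and 6.36, and Klf6 6.21, 6.21 and 5.95. Klf4, a monocyte factor, had levels of 5.48, 5.55 and 4.62, with WT 3 the lowest, and Cebpd 4.90, 5.06 and 5.20. Spic, the factor of iron-recycling macrophages, had levels of -0.71, 0.79 and -0.33 and was more than 2-fold higher in WT 2 than in both others. WT 3 was the lowest culture for 19 of the 26 genes, with a median difference of -0.26. Over all detected genes it was the lowest in 5423 of 15311, with a median difference of -0.002. The reference genes had a median difference of -0.30, but they were brighter, with a median level of 6.67 against 2.93 for the factors. They are therefore not a comparison matched for level, and the cause of this lean was not tested.

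Sensors of microbes were detected in 20 of 21 cases, and 14 lay above the 75th percentile in each culture. Clec4n was followed by Clec4d, a lectin for mycobacterial glycolipid (6.74 ± 0.13), Tlr13, a receptor for bacterial ribosomal RNA (5.22 ± 0.15), and Cd14, the co-receptor for lipopolysaccharide (5.16 ± 0.17). Tlr2 had levels of 4.35, 4.24 and 4.64, Tlr4 2.17, 1.85 and 2.28 and Tlr7 2.19, 2.65 and 2.76, whereas Tlr3, the receptor for double-stranded RNA, had -4.54, -4.33 and -4.04. Tlr8 was above background on 1 array. The Fc receptor list was detected in 8 of 10: the inhibitory Fcgr2b had levels of 4.09, 4.17 and 4.21 and the activating Fcgr3 3.76, 3.75 and 3.68, and Fcamr was above background on 1 array. Complement genes were detected in 15 of 17. Cfp (properdin) had levels of 6.97, 6.72 and 6.74, C1qc, a chain of the recognition molecule C1q, 6.48, 6.04 and 6.31, and Itgb2, the partner chain of both CD11 integrins, 6.29, 6.33 and 6.17. C3 had levels of 5.82, 5.65 and 6.37, with WT 3 the highest. C9 was not above background on any array.

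Chemokine genes were detected in 20 of 20 cases, while cytokine genes were detected in 13 of 19. After Ccl6 and Ccl17 came Ccl9 (7.03, 6.96 and 6.73) and Ccl4 (6.32, 6.19 and 5.85), which attract monocytes and other leukocytes. Among cytokines, Il18 had levels of 1.95, 2.30 and 2.23, Tgfb1 1.79, 1.79 and 2.36 and Il1b 1.73, 1.36 and 2.58, the last with WT 3 the highest. Il27 had levels of 0.89, 0.63 and 0.43. Tnf lay at the 75th percentile, at -0.09, -0.09 and 0.07, and Il6 below it, at -2.88, -2.52 and -2.07. Il12a, Il13, Il17a, Il23a and Ifng were not well above background on any array, and Lif was above it on 2. Il10 had levels of -4.24, -4.54 and -5.02, close to the lowest levels marked as above background, which were -5.74, -6.02 and -5.72 on the 3 arrays.

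Genes of classical and alternative activation were detected in 12 of 15 cases, 11 of them above the 75th percentile in each culture. Chil3, Mgl2 (a galactose-type lectin, 6.56, 6.31 and 6.30) and Clec10a (its paralog, 4.24, 4.32 and 4.12), all markers of the alternative state, were among these, as were Tgm2, a transglutaminase (5.10, 4.60 and 5.00), Cd80 (3.68, 4.03 and 4.08) and Cd86 (3.47, 3.20 and 3.36), which co-stimulate T cells. Arg1, the arginase of the alternative state, was well above background on 2 arrays, as was Ptgs2, the inducible cyclooxygenase. Nos2, the nitric oxide synthase of the classical state, had levels of -0.58, -1.50 and -0.65. Retnla, a resistin-like protein of the alternative state, had levels of 2.46, 1.01 and 0.03, and Cd40 0.88, 1.09 and 2.36. WT 1 was more than 2-fold above both others for Retnla, and WT 3 for Cd40.

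Lysosome and proton pump genes were bright throughout: all 22 were detected and all 22 lay above the 75th percentile in each culture, against 39.3% of named genes. The protease genes Ctsb, Ctsd and Ctsz had means of 7.46 ± 0.32, 7.33 ± 0.29 and 7.31 ± 0.21, and the membrane protein gene Lamp1 7.42 ± 0.24. Tfeb, the transcription factor that controls lysosomal genes, had levels of 1.28, 1.31 and 1.30. All 18 respiratory chain genes were likewise above it, with Cox5a at 7.33 ± 0.12, Cox4i1 at 7.30 ± 0.25, Cox5b at 6.95 ± 0.22 and Ndufb8 at 6.79 ± 0.11. Glycolysis genes were detected in 17 of 17 cases and 16 lay above the percentile, led by Gapdh (7.44 ± 0.23), Aldoa (7.38 ± 0.09), Pgam1 (6.99 ± 0.18) and Ldha (6.95 ± 0.09). These are brightness counts for probes chosen as the brightest of their gene and do not compare one pathway's output with another's.

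Lipid handling genes were detected in 16 of 16 cases, with Apoe, a lipid carrier made by macrophages, at 6.95, 6.28 and 6.16, and Lpl, lipoprotein lipase, at 6.35, 6.39 and 6.09. Sterol synthesis genes were detected in 17 of 17, and Msmo1, Fdps and Hmgcs1, which act at different steps of the pathway, had means of 5.19 ± 0.17, 5.13 ± 0.13 and 5.04 ± 0.14. Cell cycle genes were detected in 23 of 23, and 19 lay above the 75th percentile in each culture. Pcna, the clamp of DNA polymerase, had levels of 5.67, 5.75 and 5.48, Mki67, the proliferation antigen, 3.84, 3.91 and 4.25, and Mcm6 and Mcm4, of the replicative helicase, had means of 4.51 ± 0.07 and 4.33 ± 0.08. Cdkn1a, which halts the cycle, had levels of 4.60, 4.58 and 4.51. No detected cell cycle gene had a culture apart from both others by 2-fold.

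Heme and iron genes were detected in 22 of 25 cases. Besides Fth1, the ferritin light chain Ftl1 had levels of 7.66, 7.48 and 7.20, Alas1, which starts heme synthesis, 6.79, 6.76 and 6.65, and Hp, the hemoglobin scavenger haptoglobin, 6.60, 6.47 and 6.83. Bach1, the heme-binding repressor deleted in the knockout mice of the series, had levels of 2.21, 2.48 and 2.59. Hamp, encoding hepcidin, was above background on 2 arrays and Alas2, the erythroid form of the first enzyme, on 1. All 20 antioxidant genes were detected, and 19 lay above the 75th percentile in each culture. Beside Gpx1, the peroxiredoxin gene Prdx1 had a mean of 7.42 ± 0.26, thioredoxin Txn1 7.36 ± 0.23 and Gpx4, which reduces lipid peroxides, 7.29 ± 0.25. Reference genes of 12 kinds were all detected, and B2m and Rplp0 had means of 7.02 ± 0.20 and 7.25 ± 0.19. The medians of the detected members were 6.67 for reference genes, 6.31 for lysosome and proton pump genes, 5.98 for the respiratory chain and -1.62 for cytokines, beside 0.41 for all detected named genes, and the lowest of the 40 lists was that of liver genes at -4.10.

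**Figure D3:**
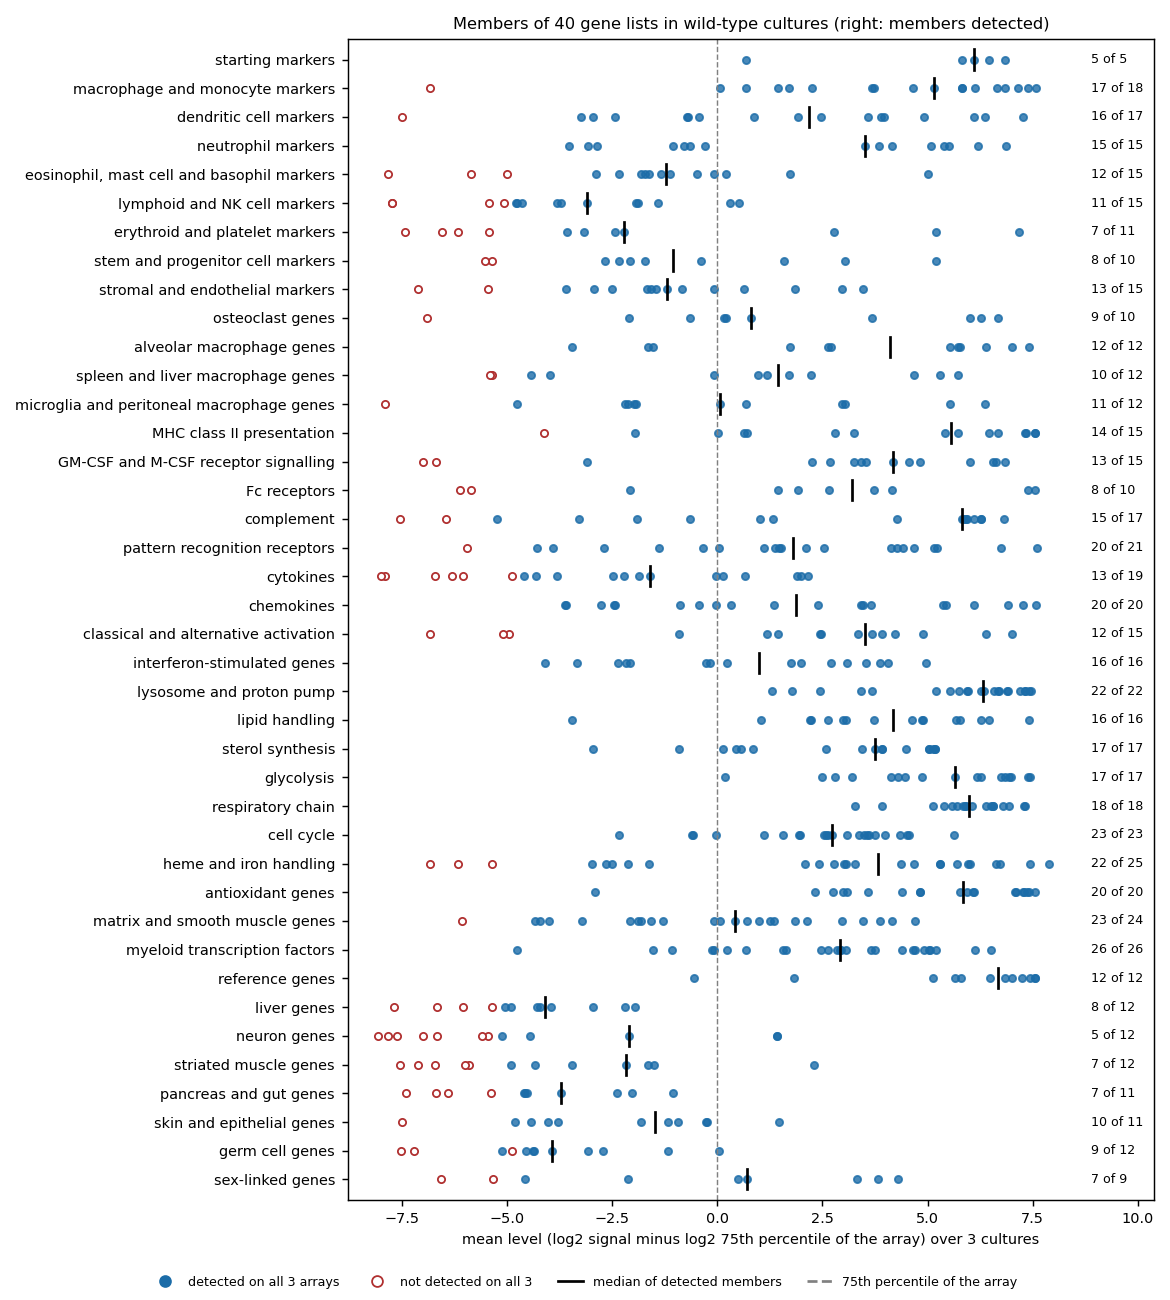
Mean level over 3 cultures of each member of 40 gene lists, on the log2 scale where 0 is the array's 75th percentile, 1 row per list. Filled points were detected on all 3 arrays, hollow points were not, the black bar is the median of the detected members, and the counts at the right give members detected of members named; genes of other tissues near the bottom are often detected but lie mostly below the percentile.

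Detection on its own is a permissive measure, as genes of unrelated tissues show. Of 70 genes of liver, neurons, striated muscle, pancreas and gut, skin and epithelium, and germ cells, 46 were detected (65.7%, against 76.5% of all named genes), with a median level of -3.28. Above the 75th percentile in each culture lay 4 of them. Ryr1, the calcium release channel of muscle, had levels of 2.88, 2.08 and 1.96, Trp63, a transcription factor of epithelium, 1.66, 1.68 and 1.08, and the synaptic genes Snap25 and Syn1 2.05, 2.02 and 0.17 and 1.45, 1.35 and 1.43. The second Trp63 probe was not above background on any array. Among olfactory receptor genes, 361 of 1065 were detected (33.9%) and 9 lay above the percentile. The defining liver genes Alb, Apoa1 and Ttr were not above background on any array. A gene marked as detected at such low levels is therefore given here by its level and not called expressed.

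The brightest liver genes were Tat, Cyp2e1, Serpina1a and Cps1, with means of -1.97 ± 0.18, -2.19 ± 0.20, -2.95 ± 0.20 and -3.97 ± 0.51. After Snap25 and Syn1, the neuronal genes Camk2a and Grin1 had means of -2.11 ± 0.23 and -4.46 ± 0.19, and the muscle genes after Ryr1 were Myh7, Acta1 and Tnnt3, with -1.51 ± 0.11, -1.66 ± 0.95 and -2.18 ± 0.20. Those of pancreas were Ins2, Cela1, Ins1 and Cpa1, at -1.05 ± 0.44, -2.04 ± 0.38, -2.39 ± 0.49 and -3.73 ± 0.42. Germ cell genes were led by Nanog, Gdf9, Tnp1 and Prm2, at 0.03 ± 0.67, -1.19 ± 0.22, -2.72 ± 0.25 and -3.08 ± 0.22, and skin genes after Trp63 by Krt10, Cdh1 and Krt14, at -0.25 ± 0.28, -0.27 ± 0.47 and -0.95 ± 0.10. None of these means but that of Nanog lay above 0. Gad1, Slc17a7, Map2 and Stmn2 of neurons, Mylpf and Mb of muscle, Pnlip and Lgr5 of pancreas and gut, Krt8 of epithelium and Dazl of germ cells were not above background on any array. Syt1, Myh4, Tnnt2, Actn2, Gcg and Odf1 were above background on 1 array, and Nefl, Vil1 and Prm1 on 2.

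The cultures were close to each other over most genes. The SD over the 3 cultures had a median of 0.21 over detected genes, with quartiles of 0.13 and 0.33, and exceeded 1 for 193 genes (1.26%). Between WT 1 and WT 2, 2.82% of detected genes differed at least 2-fold, against 5.32% between WT 1 and WT 3 and 5.13% between WT 2 and WT 3. Across genes, which are not independent replicates, the Pearson correlation was 0.992 for WT 1 with WT 2 and 0.989 for each with WT 3. Spread within an array was gauged from 300 detected probes that are spotted 10 times on each array. Their median SD within an array was 0.097, and between cultures it was 0.20, the larger value in 217 of the 300 probes (72.3%). The first is an SD of single spots and the second an SD of means over replicate spots, so the measures are unlike. Spots on 1 array also leave out technical variation between arrays, so the excess is not a measure of difference between mice. The spread was wider for dim genes: the median SD was 0.33 in the bin of genes with a median level of -4.47 and 0.12 in that with 4.40. These were the widest and the narrowest bins, and the dimmest and the brightest had 0.29 and 0.15.

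**Figure D4:**
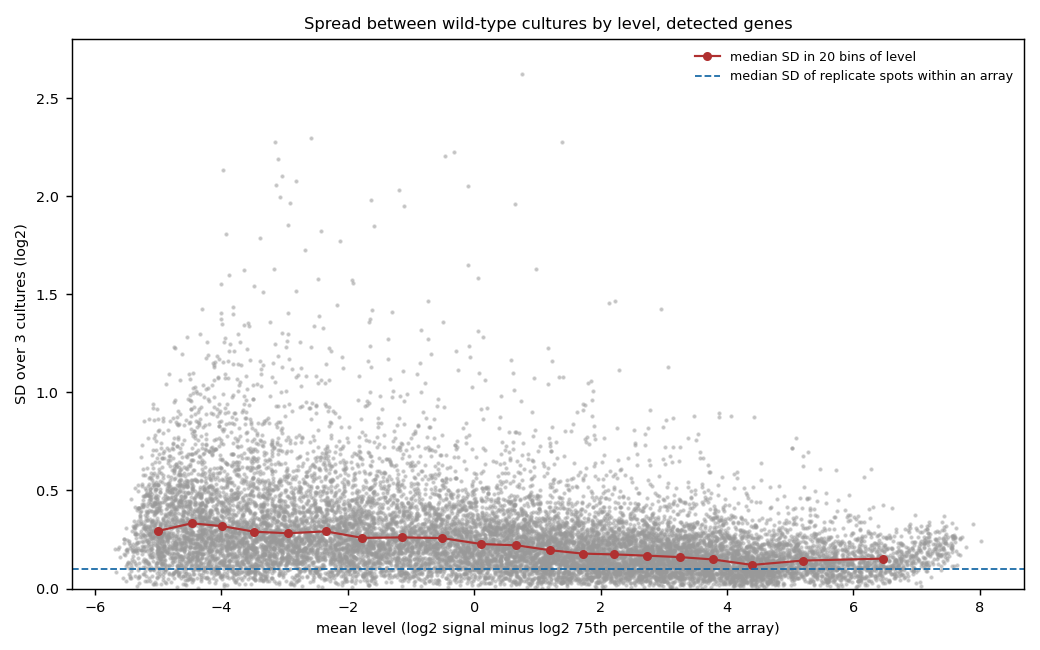
SD over 3 wild-type cultures (log2) against the mean level for each of 15311 detected genes (grey points), with the median SD in 20 bins of level (red line) and the median SD of replicate spots within an array (dashed line, 0.097). The red line is 0.29 in the dimmest bin and peaks at 0.33 in the next. It falls to 0.12 in the bin at a level of 4.40 and is 0.15 in the brightest. It stays above the dashed line, and 193 genes lie above an SD of 1.

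Genes were then sought in which 1 culture stood at least 2-fold apart from both others. WT 1 lay above both others for 64 genes (0.418% of those detected) and below both for 66 (0.431%). WT 2 lay above for 76 (0.496%) and below for 78 (0.509%). WT 3 lay above for 142 (0.927%) and below for 218 (1.42%), so it made up 360 of the 644 such genes. Each of these sets holds mostly dim genes, with median levels between -3.86 and -2.22. Where a gene had a second detected probe, it put the culture on the same side of both others in 17 of 30 genes for WT 3 below and in 14 of 22 for WT 3 above. For WT 2 the counts were 8 of 9 above and 8 of 12 below, and for WT 1 5 of 9 above and 1 of 6 below.

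Several genes of connective tissue were low in WT 3. Tm4sf1, a membrane protein of endothelial and stromal cells, had levels of 0.99, 0.93 and -2.89 in WT 1, WT 2 and WT 3, which put WT 3 14.2-fold below the nearer of the others. Fbn1, the microfibril protein fibrillin-1, had levels of -1.93, -1.73 and -5.62. WT 1 and WT 2 lay together for each, and WT 3 far below. Dcn, the collagen-binding proteoglycan decorin, had levels of 0.16, -0.21 and -3.53, and Hspb1, a small heat shock protein, 1.81, 1.76 and -1.62. Foxc2, a transcription factor of mesenchyme, had levels of -1.52, -1.71 and -5.21, and Phldb2, a protein of the cell cortex, -2.01, -1.64 and -5.45. Ccn4, a matricellular protein, had levels of -2.26, -1.66 and -5.48. In WT 3, Fbn1, Foxc2, Phldb2 and Ccn4 lay close to -5.72, the lowest level marked as above background on that array. The size of their gaps is therefore uncertain. Of these 7, Tm4sf1, Fbn1, Phldb2, Foxc2 and Ccn4 were among the 12 named genes with the largest SD. The 7 were named for their distance in WT 3 or their SD, so this overlap follows from the choice.

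The lists of connective tissue genes gave the same picture as counts. Of 24 matrix and smooth muscle genes, 23 were detected, WT 3 was the lowest culture in 19 and lay at least 2-fold below both others in 14 (1.42% of all detected genes did so), and the median difference from the mean of the others was -1.68. Col1a1, the alpha 1 chain of type I collagen, had levels of 1.01, 0.70 and -1.99, and Col3a1, of type III collagen, -0.23, -0.83 and -3.69. Acta2, the smooth muscle actin, had a mean of 3.47 ± 0.88, with its lowest level, 2.46, in WT 3. Timp1, a protease inhibitor, had levels of 4.33, 4.46 and 2.85, and Fn1, fibronectin, 4.61, 4.35 and 3.53. Sparc, a collagen-binding glycoprotein, had levels of 3.78, 3.79 and 1.31, and its second probe gave 1.06, 1.36 and -1.76. Thbs1, thrombospondin 1, at 4.42, 4.84 and 4.85, was 1 of the 4 detected members in which WT 3 was not the lowest, with Timp3, Bgn and Col4a2. Postn, periostin, was high in WT 2 alone, at -2.05, 0.32 and -2.19. Of 15 stromal and endothelial genes 13 were detected, and WT 3 lay at least 2-fold below both others in 7, with a median difference of -1.52. Within that list Col1a2 had levels of 2.58, 2.35 and 0.64 and the pericyte receptor Pdgfrb 0.05, -0.45 and -2.14, whereas the endothelial genes Kdr, Pecam1 and Cdh5 had 0.85, 0.48 and 0.59, -1.17, -1.97 and -1.89 and -3.19, -2.67 and -2.94, within 2-fold of each other. Thy1, carried by stromal cells and by T cells, was higher in WT 3, at -1.98, -1.93 and -0.49. Lum was not above background on any array, Pdgfra was above it on 2 and Col5a2 on 1. Both lists, which share members, were chosen with such a difference already known, so their counts describe it and do not support it. The stromal markers did not all move with the matrix genes. WT 3 was the lowest in 7 of the 13 detected stromal and endothelial genes and the highest in 2. Lepr was highest in WT 3, at -2.69, -2.71 and -2.11, and Cxcl12 lowest in WT 2, at -2.76, -5.00 and -3.04. The part of stromal cells in the difference was not tested.

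Some genes of basophils and mast cells were high in WT 3, as was a lectin of Langerhans cells. Mcpt8, a basophil protease, had levels of -2.53, -3.01 and 0.63, and Cd207, that lectin, -3.47, -4.30 and 0.04, which put WT 3 8.95-fold and 11.4-fold above the nearer of the others. Adra2b, an alpha-2 adrenergic receptor and the gene with the largest SD of all detected genes, had levels of 0.13, -1.51 and 3.63. Among 12 detected eosinophil, mast cell and basophil genes, WT 3 was the highest in 8 and at least 2-fold above both others in 3, with a median difference of 0.94. Over all 15311 detected genes WT 3 was the highest in 5384 and at least 2-fold above both others in 142 (0.927%). The list was chosen with earlier results of these data known. Beside Mcpt8, the 3 genes were Cpa3, a mast cell carboxypeptidase, at 0.12, -0.66 and 1.17, and Kit, the receptor of mast cells and progenitors, at -2.40, -2.12 and -0.66. The mast cell proteases Mcpt4 and Tpsb2 differed less, at -1.52, -1.36 and -1.17 and -1.62, -2.05 and -1.78, and Tpsb2 had its highest level in WT 1. The basophil protease Prss34, at 0.05, -2.03 and 0.53, was 1.40-fold higher in WT 3 than in WT 1. Eosinophil genes of the list went otherwise. Prg2 (4.22, 5.60 and 5.25) and Epx (-1.50, 0.77 and 0.47) were highest in WT 2, and Siglecf (1.89, 1.76 and 1.55) was lowest in WT 3. Other genes far above in WT 3 were Vangl2, a planar polarity gene, at -0.71, -1.78 and 2.19, Mtus2 at -3.49, -3.12 and -1.01, Tmem178 at -0.75, -0.43 and 1.61, Trim42 at -4.72, -5.06 and -2.84 and Crisp1 at -4.73, -5.39 and -2.88. The second detected Vangl2 probe did not share that pattern, at -0.89, -1.23 and -1.57. Of 15 neutrophil genes, 3 were at least 2-fold above both others in WT 3, namely Ctsg (-1.37, -0.53 and 1.02), Retnlg (-1.87, -1.37 and 0.04) and Cxcr2 (-3.96, -4.09 and -2.56). The neutrophil list as a whole did not lean that way. WT 3 was the highest in 6 of its genes and the lowest in 6, with a median difference of -0.15.

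Interferon-stimulated genes, which type I interferons switch on through STAT2 and IRF9, followed the order WT 3, WT 1, WT 2. All 16 named members were detected, 8 of them above the 75th percentile in each culture. Ifit3, an antiviral protein, had levels of 3.11, 1.92 and 4.18, Isg15, a ubiquitin-like modifier, 3.83, 3.02 and 4.77, and Rsad2, the antiviral enzyme viperin, 2.42, 2.15 and 3.54. WT 3 was the highest culture in 14 of the 16 genes, WT 2 the lowest in 15, and 6 genes were at least 2-fold higher in WT 3 than in both others. Among all 15311 detected genes WT 3 was the highest in 5384 and WT 2 the lowest in 5207. WT 3 lay at least 2-fold above both others in 142 of them (0.927%). The interferon list was chosen with earlier results of these data known, so its counts describe the difference and do not support it. The median difference of WT 3 from the mean of the others was 1.07. Oas1a and Irf9 differed less, at 5.07, 4.78 and 5.05 and 4.07, 3.79 and 4.30. Ifnb1, which encodes interferon beta, had levels of -2.48, -5.33 and -3.62 and did not follow that order, with WT 1 the highest.

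Promoters of 4 of these genes, each at least 2-fold higher in WT 3 or nearly so, are shown for the interferon-stimulated response element, the element that STAT2 and IRF9 are known to bind. The sequences are given as for the class II genes, with matches to the letters GAAA, any 2 bases and GAAA on either strand in capitals, again sought over the same 300 bases.
Ifit1 (chr19:34640639-34640888, plus strand): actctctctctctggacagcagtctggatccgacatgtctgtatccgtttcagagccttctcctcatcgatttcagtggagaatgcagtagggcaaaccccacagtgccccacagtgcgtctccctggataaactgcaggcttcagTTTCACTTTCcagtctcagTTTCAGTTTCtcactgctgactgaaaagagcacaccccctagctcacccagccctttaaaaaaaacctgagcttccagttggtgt
Ifit3 (chr19:34583279-34583528, plus strand): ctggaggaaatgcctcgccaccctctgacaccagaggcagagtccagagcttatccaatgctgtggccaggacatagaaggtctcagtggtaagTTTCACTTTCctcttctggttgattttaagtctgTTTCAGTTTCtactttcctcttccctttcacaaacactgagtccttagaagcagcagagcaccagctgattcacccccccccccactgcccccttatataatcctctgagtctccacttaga
Isg15 (chr4:156200819-156201068, minus strand): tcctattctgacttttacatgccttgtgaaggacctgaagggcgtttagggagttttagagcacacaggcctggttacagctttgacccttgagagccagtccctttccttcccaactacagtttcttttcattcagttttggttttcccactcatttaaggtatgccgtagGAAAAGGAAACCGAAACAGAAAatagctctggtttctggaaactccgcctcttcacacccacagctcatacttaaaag
Rsad2 (chr12:26456453-26456702, minus strand): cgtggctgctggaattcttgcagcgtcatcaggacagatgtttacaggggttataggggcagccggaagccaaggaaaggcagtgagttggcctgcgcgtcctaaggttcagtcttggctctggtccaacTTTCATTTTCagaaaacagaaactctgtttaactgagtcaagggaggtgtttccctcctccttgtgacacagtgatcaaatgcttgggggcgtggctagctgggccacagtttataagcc
Ifit1 and Ifit3 each had 2 matches, Isg15 had 3 that overlapped, and Rsad2 had 1, which ended 110 bases before the start. The element was found in 7 of the 13 listed genes with a RefSeq promoter entry (53.8%) and in 1079 of all 27025 genes (3.99%). The matched genes were Ifit1, Ifit3, Isg15, Oas1a, Oas3, Rsad2 and Stat2. Of these, Ifit1 had levels of -2.47, -2.73 and -1.36 and Oas3 -2.59, -2.68 and -1.85, while Oas1a and Stat2 carried a match and had nearly equal levels in WT 1 and WT 3. Ifit2, at -2.28, -3.16 and -0.82, and Ifi44, at -4.31, -4.92 and -3.10, had no match in this window and showed the same order of cultures. Oasl1, at -0.68, -0.62 and 0.77, Oasl2, Irf7 and Irf9 had no match either, and WT 3 was the highest in each. Only promoters with a match are shown. The motif was chosen with the levels known.

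In WT 2, 3 of 20 antioxidant genes lay at least 2-fold above both other cultures, against 76 of all 15311 detected genes (0.496%). The antioxidant list was chosen with earlier results of these data known. Gclm and Gclc, the subunits of the enzyme that starts glutathione synthesis, had levels of 2.08, 3.66 and 2.50 and 3.02, 4.36 and 3.34, and Nqo1, a quinone reductase, 2.55, 3.75 and 2.66. In each, WT 1 and WT 3 lay within 2-fold of each other and WT 2 at least 2-fold above both. Catalase (Cat) had levels of 2.71, 3.56 and 2.99. Hmox1 and Slc40a1, named above, had WT 2 the highest, and the second Hmox1 probe gave 0.10, 1.31 and 0.04. The pattern did not extend to the whole antioxidant list: the glutathione peroxidase genes Gpx1 and Gpx4 had their highest levels in WT 1, and Gsr, which recycles glutathione, and Slc7a11, which imports cystine for it, had nearly equal levels in WT 2 and WT 3, at 4.67, 4.92 and 4.89 and 1.92, 2.54 and 2.53. WT 2 was the highest in 10 of 20 genes, against 4695 of 15311 detected genes, and its median difference from the others was 0.15, which became 0.28 without WT 1 and 0.012 without WT 3. Further genes far above in WT 2 were Postn, Cyp26b1, a retinoic acid hydroxylase, at -1.88, -0.13 and -1.87, Lhx2, a transcription factor, at -3.69, -1.94 and -3.83, and Aox1, an aldehyde oxidase, at -4.70, -2.81 and -4.66. Zcchc12 had levels of -4.70, -2.71 and -5.48, Ccdc9b -3.74, -1.98 and -5.22, Stk26 -4.79, -2.33 and -3.99 and Ptgdr2, a prostaglandin D receptor, -5.02, -3.37 and -5.03, all below the 75th percentile. Far below in WT 2 were Prss34, a basophil protease, at 0.05, -2.03 and 0.53, Cxcl12, the chemokine that retains marrow cells, at -2.76, -5.00 and -3.04, and Trpm3, an ion channel, at -2.36, -4.28 and -2.17. Olfr433, Taar7b, Myo5b, Klhdc8b and Mapk12 belonged to the same 8, and their lowest levels, all in WT 2, ran from -5.71 for Taar7b to -4.86 for Myo5b.

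Genes of a chemokine and a complement receptor were high in WT 1. Ccl1, the chemokine, had levels of -0.53, -4.22 and -4.68, and Vsig4, the receptor, known from resident macrophages, -1.52, -5.03 and -5.38, which put WT 1 12.9-fold and 11.4-fold above the nearer of the others. In WT 2 and WT 3 both probes were close to the lowest levels marked as above background. Stk33 had levels of -2.25, -5.16 and -4.62, Ly6g6d -1.53, -3.47 and -3.89, Cacna1d, a calcium channel, -2.06, -3.87 and -4.23, and Fbxo41, Pdzd2 and Olfr95 were likewise dim, with means of -4.10 ± 1.16, -4.74 ± 1.23 and -3.98 ± 1.15. Low in WT 1 were Epx, the peroxidase of eosinophils, at -1.50, 0.77 and 0.47, and Aoc1, the histamine-degrading diamine oxidase, at -3.25, -0.85 and -0.73. Hdc, which makes histamine, also had its lowest level in WT 1, at -2.34, -0.87 and -0.15. Tal2 had levels of -4.32, -2.27 and -0.67 and Prx -4.18, -2.19 and -2.29, and Dgkg, Six4, Map2k3os and Rasl11b lay between -5.49 and -5.13 in WT 1.

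**Figure D5:**
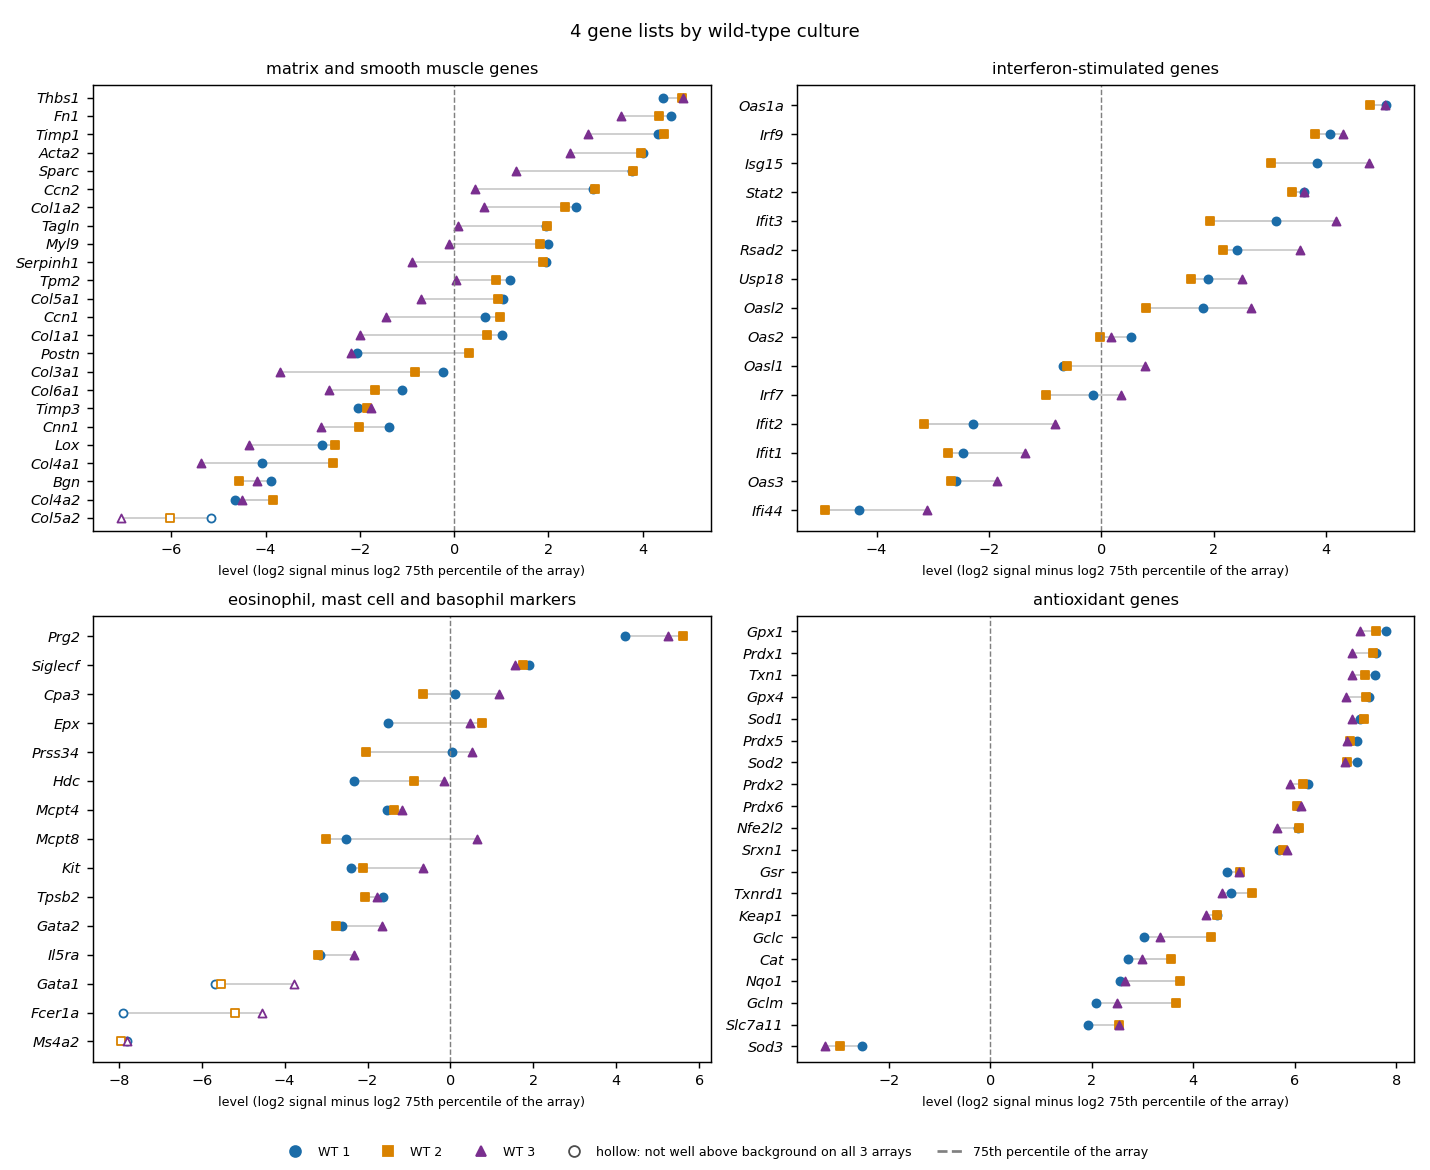
Levels of 4 gene lists in WT 1, WT 2 and WT 3, on the log2 scale where 0 is the array's 75th percentile, 1 row for each gene drawn and 1 symbol per culture, hollow where not detected on all 3 arrays. WT 3 (triangles) is the lowest in 19 of 23 detected matrix genes, such as Col1a1, and the highest in most interferon-stimulated genes drawn, and WT 2 (squares) stands apart for Gclc, Nqo1 and Gclm among antioxidant genes.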

How the data were processed

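The scanner files of 3 wild-type arrays were used; the 3 knockout arrays and a deposited table of probe-centred values were not used here. Spot intensity values had been made by the authors with Agilent Feature Extraction. The file headers give its version as 10.7.3.1, and the submitters' processing notes as 9.1. The deposited processed intensity was background-subtracted within each array and not scaled between arrays, per the file headers. It was taken as log2 minus the log2 75th percentile of the array's 59305 non-control spots; outlier-marked spots were dropped (0.20% to 0.27% by array), spots of 1 probe were averaged, and no spot was saturated. Between 70.3% and 73.2% of spots were well above background. Probes were designed on mm9 and named by accession through RefSeq genes of GRCm38.p6, which left 29268 of 55681 probes unnamed (16541 of them detected). The promoters came from RefSeq for GRCm38.p6 and were matched by symbol.

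Where a gene had several probes, the brightest detected one was used; 5337 genes had several, and in 31.0% of them the brightest and dimmest differed more than 16-fold. The members and all 40 lists were chosen with earlier results of these data known. Named genes were the starting markers, the 30 brightest, up to 4 brightest members per list with those not detected, the 12 of largest SD, the 8 farthest above and below for each culture, and sex-linked genes; some of the 30 were given as a group, and identifier-only names (635 detected) were counted, not named. A few genes that the rule takes are not reported here. Further list members named for their role or their spread were chosen after their values were seen. Cd68, Ly6c2, Ly6g, Hbb-b1, Clec7a, Il12b, Mx1, Mx2, Amy2b and Flg were not matched to a named probe and were not analysed here. The code that counts genes with 1 culture apart was checked on simulated data, which bears on the code alone. Alternatives were 2 other scalings, another percentile, normexp correction (offset 50), other filters and probe rules, 1.5-fold and 4-fold thresholds, and leaving out each culture. The plan for normexp named spot and background signals, and median signals were taken for both. Python 3.11.15, R 4.3.3 and limma 3.58.1 were used.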

Additional observations from a re-analysis of the deposited data

How the results depend on the processing

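No paired analysis was possible because only 1 group was used and the replicate numbers of the genotypes are not shared. Of 393 values recomputed under 12 settings, 344 stayed, which meant within 1.5 times for counts and within an SD for other values. For marker levels it was the SD over the 3 cultures, and for the median SD it was the SD of the gene SDs. For a culture minus the others it was the SD of the 3 culture medians. A wide gap of WT 3 enlarges that SD, so those medians could hardly count as moved. The tallies are therefore not a measure of stability. Among values of the main results, 109 stayed and 34 moved. Among the levels of single markers and the detection counts of single lists, 235 stayed and 15 moved. The sign changed for Spi1 alone, whose mean level was -1.21 against the 75th percentile of detected probes, where the reference itself is higher. Over the mean of their detected probes Csf1r had 3.44 and Itgam 2.06. The count of genes with 1 culture apart, 644, was 292 after normexp correction, 1042 with a filter of 2 of 3 arrays, 2585 at 1.5-fold and 55 at 4-fold; the thresholds change it by construction. Above and below, in that order, WT 1 had 26 and 21, WT 2 26 and 24, and WT 3 63 and 132 after normexp; 428 and 299, 394 and 340, and 518 and 606 at 1.5-fold; and 3 and 2, 1 and 3, and 7 and 39 at 4-fold. With a filter of 2 of 3 arrays the counts below were 157, 152 and 341. Scaling to the array median gave WT 1 109 below and WT 2 120 above and 48 below, and quantile normalization WT 2 49 below; the cause was not tested. WT 3 had the most genes apart under each of these settings. Genes above the reference level numbered 12473 when it was the array median and 5194 when it was the 75th percentile of detected probes, again by construction.

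The medians of WT 3 minus the others kept their sign under each scaling, filter and probe rule run: from -1.72 to -1.50 for matrix genes, -1.59 to -1.49 for stromal genes, 0.93 to 1.11 for interferon-stimulated genes and 0.81 to 1.24 for eosinophil, mast cell and basophil genes. Leaving out WT 1 or WT 2 gave -1.71 and -1.54, -1.50 and -1.54, 1.35 and 0.80, and 0.80 and 1.00. The antioxidant median of WT 2 was 0.25 with scaling to the array median and 0.28 without WT 1 and 0.0118 without WT 3. Leaving out 1 culture gave 15522 to 15625 detected genes and a median SD of 0.16 to 0.18. With 2 cultures no gene can have 1 culture apart, and no value for WT 3 exists without it. Low levels near the background mark limit what dim genes show.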
